A study of Tetranychus urticae with 24 samples.

Results

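The 3 class C ABC transporter genes described here, tetur14g02300, tetur14g02320 and tetur28g01950, were followed in whole adult females of the spider mite Tetranychus urticae exposed to synergists. They are 3 of the 19087 genes in the count table, and all 3 are among the 12736 genes that passed a filter on low counts. They were chosen by their measured difference between DEF and FORM: they are the class C ABC transporters in the study's list of genes differing between these groups. Every difference that involves DEF or FORM is therefore given as a description, without a test. Counts of the 3 genes passing a threshold against FORM are not read as a test either. Other genes of the class were not analysed here.

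All mites were of the JP-R strain, an acaricide-resistant laboratory strain kept on bean plants under cyenopyrafen until the week before collection. The groups were unsprayed mites (CON), mites sprayed with formulation alone, that is N,N-dimethylformamide and emulsifier W in water (FORM), and mites sprayed with PBO at 1000 ppm, DEF at 500 ppm, DEM at 2000 ppm or CsA at 50 ppm in that formulation. RNA came from mites alive after 24 h, from about 100 females per extract, with 4 biological replicates per group and 24 libraries in all. The 6 groups share the strain, its selection history and the host plant, and the sprayed groups also share the solvent. RNA of whole mites does not separate fewer cells of a type from less RNA per cell.

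ABC transporters are membrane proteins that use the energy of ATP to move substrates across membranes. Class C holds the multidrug resistance-associated proteins, which in vertebrates export drugs and drug conjugates with glutathione, glucuronide or sulphate, the last step of detoxification after oxidation and conjugation. The class also holds members that regulate ion channels, and the substrates of the 3 mite proteins are not given in the sources used here. Of the synergists, PBO inhibits P450 monooxygenases, DEF inhibits esterases, DEM depletes glutathione, and CsA, a cyclic peptide known as an inhibitor of calcineurin, also blocks ABC transporters in vertebrates.

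Library totals ran from 13824851 to 18198286 reads counted in genes, with a median of 15758427. Some libraries stood apart from the others of their group by a chi-square of counts over genes. The chi-square per degree of freedom was 44.97 to 51.1 for DEM 1 with the other DEM libraries, against 3.47 to 5.87 among those. It was 18.4 to 54.1 for CON 3 with the other CON libraries, against 9.75 to 16.9 among those. It was 17.4 to 22.4 for CsA 4, against 4.28 to 11.6 for the other CsA libraries. It was 8.94 to 11.6 for FORM 4, against 4.36 to 6.00 for the other FORM libraries. Values without these libraries are given where they change a call in a comparison that does not involve FORM. Levels are given as CPM, the reads of a gene relative to the TMM-scaled size of its library, and since gene lengths were not used, levels are compared between groups for the same gene only. A gene was called different at a Benjamini-Hochberg adjusted p under 0.05 over all 12736 genes together with a fold change (FC) of at least 1.5.

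tetur14g02300 was the gene with the fewest reads of the 3, with 40 to 106 per library. Its level was 3.37, 2.61, 2.70 and 2.59 CPM in CON 1 to 4 and 2.82, 4.33, 3.41 and 3.35 CPM in FORM 1 to 4. It was 5.45, 4.62, 5.60 and 5.07 CPM in PBO 1 to 4 and 6.19, 5.26, 5.92 and 7.48 CPM in DEF 1 to 4. All PBO libraries lay above all CON and all FORM libraries. In DEM 1 to 4 the level was 4.70, 4.41, 3.71 and 4.11 CPM, and in CsA 1 to 4 it was 5.56, 5.14, 5.16 and 2.78 CPM. All DEM libraries lay above all CON libraries, whereas CsA 4 lay inside the CON range and the other 3 CsA libraries lay above it. The group means fell in the order DEF (6.21 ± 0.928 CPM, SD, n = 4), PBO (5.19 ± 0.441), CsA (4.66 ± 1.27), DEM (4.23 ± 0.427), FORM (3.48 ± 0.627) and CON (2.81 ± 0.373), and each neighbouring pair in this order overlapped.

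tetur14g02320, a gene with 104 to 210 reads per library, lies 2 gene numbers further along the same scaffold. Its level was 8.70, 6.90, 6.56 and 8.73 CPM in CON 1 to 4 and 6.38, 6.52, 7.71 and 7.26 CPM in FORM 1 to 4. In PBO 1 to 4 it was 9.01, 8.68, 8.65 and 6.98 CPM, overlapping both controls. In DEM 1 to 4 it was 11.6, 10.01, 11.5 and 9.22 CPM, and all of these lay above every CON, FORM and PBO library. It was 11.7, 9.19, 11.0 and 8.28 CPM in CsA 1 to 4 and 11.3, 9.72, 11.99 and 14.2 CPM in DEF 1 to 4. All CsA libraries lay above all FORM libraries, but CsA 4 lay below the highest CON library. The group means fell in the order DEF (11.8 ± 1.88 CPM, SD, n = 4), DEM (10.6 ± 1.16), CsA (10.1 ± 1.60), PBO (8.33 ± 0.917), CON (7.72 ± 1.16) and FORM (6.97 ± 0.627), again with overlap between all neighbours.

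tetur28g01950 had 187 to 741 reads per library and the widest range of group means. Its highest mean was 2.69 times the lowest, against 2.21 times for tetur14g02300 and 1.69 times for tetur14g02320. The highest mean was that of DEF for each gene, and DEF took part in choosing the genes. Its level was 35.8, 26.2, 21.1 and 27.2 CPM in CON 1 to 4 and 24.95, 19.4, 19.3 and 18.2 CPM in FORM 1 to 4. In PBO 1 to 4 it was 29.8, 32.5, 24.8 and 26.4 CPM, inside the CON range. It was 44.1, 34.9, 31.3 and 38.7 CPM in DEF 1 to 4. In DEM 1 to 4 it was 23.1, 16.3, 17.8 and 16.8 CPM, so that only DEM 1 reached into the CON range. In CsA 1 to 4 it was 14.1, 12.6, 15.3 and 13.4 CPM, and every CsA library lay below every library of the other 5 groups. The group means fell in the order DEF (37.3 ± 5.49 CPM, SD, n = 4), PBO (28.4 ± 3.44), CON (27.6 ± 6.09), FORM (20.5 ± 3.05), DEM (18.5 ± 3.10) and CsA (13.8 ± 1.11). Of the neighbours in this order, DEM and CsA did not overlap and the others did.

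**Figure D1:**
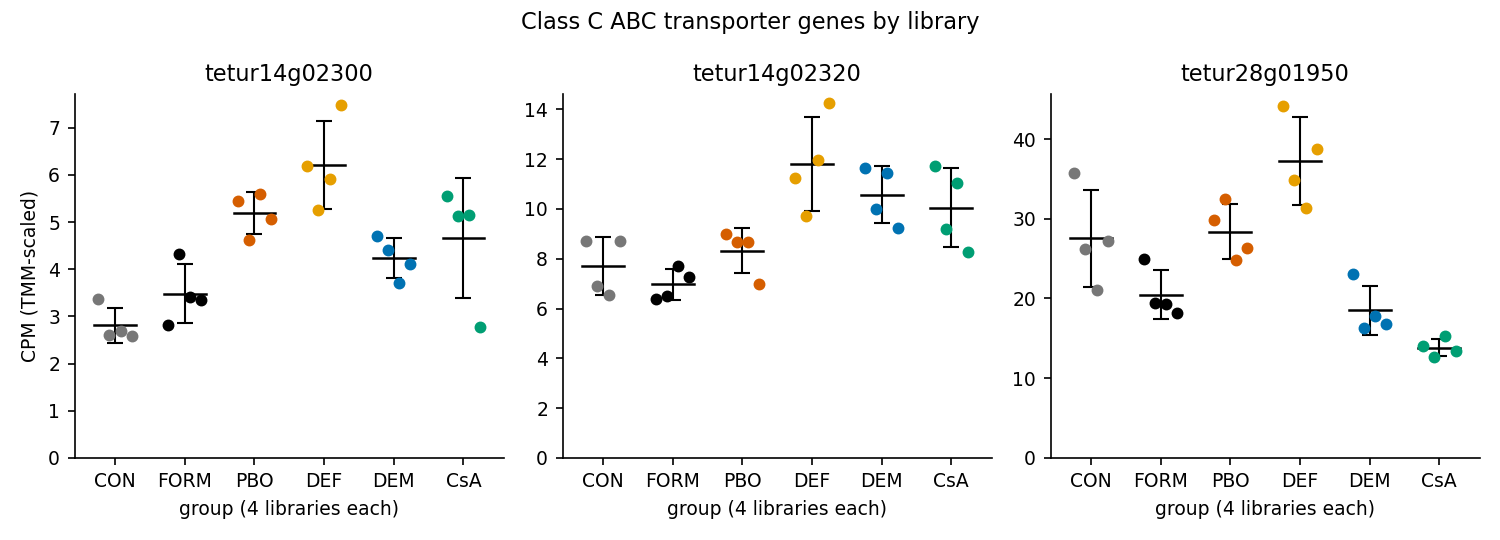
Level of the 3 class C ABC transporter genes in each library, in CPM on a linear axis starting at 0, for the 6 groups of 4 libraries. Points are libraries 1 to 4 from left to right, the horizontal line is the group mean and the bar is 1 SD. The CsA libraries of tetur28g01950, at 12.6 to 15.3 CPM, lie below all others, and CsA 4 of tetur14g02300, at 2.78 CPM, lies far below the other CsA libraries.

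The spread between replicates can be set beside the error of counting reads alone. For tetur14g02300 the coefficient of variation within groups averaged 15.3%, and counting error alone gives 10.4 to 14.4%. For tetur14g02320 these were 13.0% and 7.53 to 9.52%, and for tetur28g01950 14.8% and 4.22 to 7.03%. Counting error was thus highest for tetur14g02300.

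PBO, DEM and CsA were first compared with CON, since none of these libraries took part in choosing the genes. CON was unsprayed, so in these comparisons the synergist cannot be told apart from the formulation sprayed with it. FORM itself differed from CON by a log2 FC of 0.30 for tetur14g02300, −0.15 for tetur14g02320 and −0.43 for tetur28g01950, not tested here. With PBO, 1 of the 3 genes was called, where 6.05% of all genes tested were. tetur14g02300 was 1.84-fold higher in PBO than in CON (log2 FC 0.88, SE 0.175, 95% interval 0.52 to 1.24, edgeR's quasi-likelihood test, adjusted p = 0.00133), with all 4 PBO libraries above all 4 CON libraries. The other genes were not called, with a log2 FC of 0.11 (interval −0.17 to 0.39) for tetur14g02320 and 0.04 (−0.25 to 0.33) for tetur28g01950.

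With CsA, 2 of the 3 genes were called against CON, where 2.47% of all genes were, and they moved in opposite directions. tetur28g01950 was at 0.501 times its CON level (log2 FC −0.997, SE 0.147, interval −1.30 to −0.69, edgeR's quasi-likelihood test, adjusted p = 1.38e-04), and these groups did not overlap. tetur14g02300 was 1.65-fold higher (log2 FC 0.72, SE 0.179, interval 0.35 to 1.09, adjusted p = 0.0185, same test), with 3 of 4 CsA libraries above all CON libraries. This second call held in only 3 of the 8 fits that left out a CON or CsA library, with log2 FCs from 0.63 to 0.90. It was lost without CON 2, CON 3, CsA 1, CsA 2 or CsA 3 (adjusted p from 0.0506 to 0.0695), and without CsA 4 the log2 FC was 0.90. The call for tetur28g01950 held in all 8 such fits. tetur14g02320 had a log2 FC of 0.38 (interval 0.10 to 0.66) and an adjusted p of 0.0677 by edgeR, and was not called.

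With DEM, 0 of the 3 genes were called against CON, where 2.53% of all genes were. By edgeR all 3 had an adjusted p under 0.05 but an FC under 1.5. An adjusted p under 0.05 alone was reached by 12.2% of all genes in this comparison. The log2 FC was 0.58 for tetur14g02300 (SE 0.179, adjusted p = 0.0363, edgeR), 0.45 for tetur14g02320 (SE 0.133, adjusted p = 0.0299) and −0.58 for tetur28g01950 (SE 0.142, adjusted p = 0.0165). tetur28g01950 passed both thresholds without DEM 1 (log2 FC −0.71), CON 3 (−0.69), CON 2 (−0.60) or CON 4 (−0.59). tetur14g02300 passed both without CON 1 (0.67), DEM 3 (0.64) or DEM 4 (0.59).

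The median log2 FC of the 3 genes against CON was 0.11 for PBO, 0.45 for DEM and 0.38 for CsA, and that of all genes was −0.00398, 0.01 and 0.01. Because tetur28g01950 differed in sign from the scaffold 14 genes in DEM and CsA, such a median describes none of the 3 well.

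**Figure D2:**
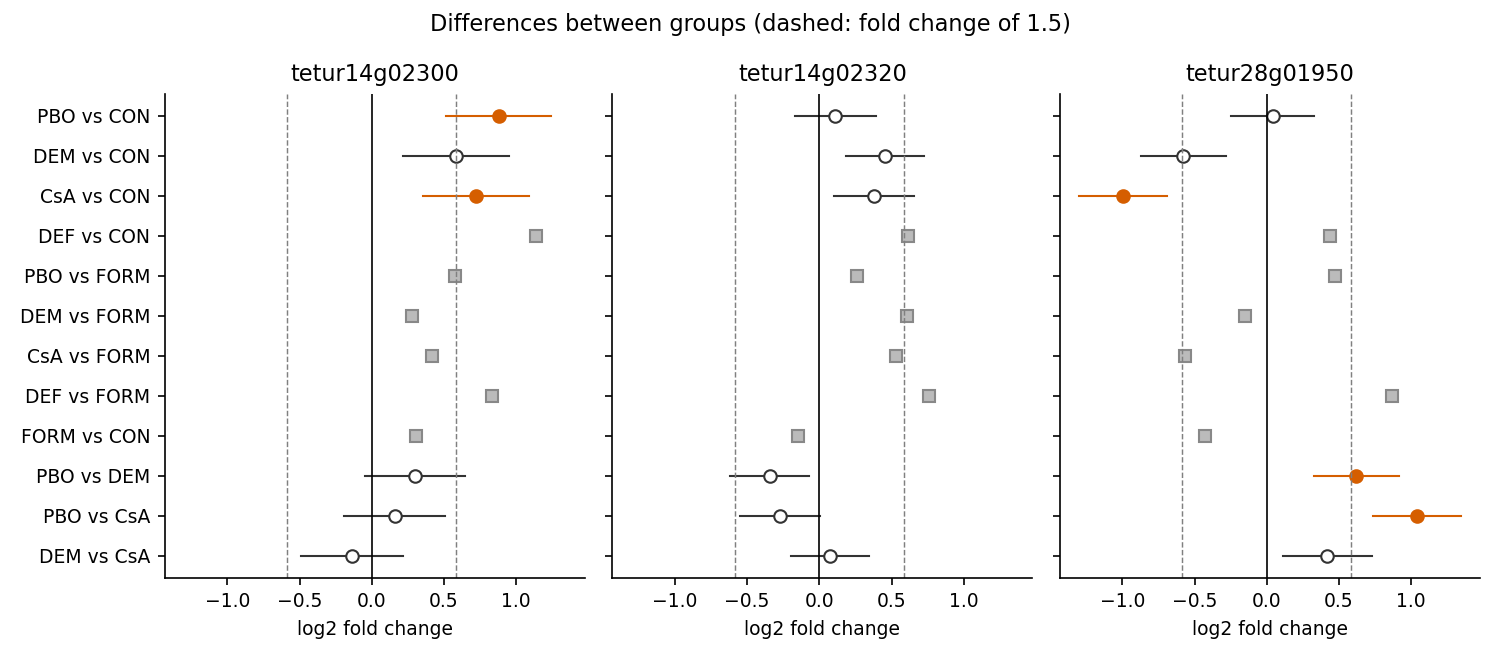
Log2 FC of each gene in 12 comparisons, the first group over the second, with 95% intervals from the edgeR fit for those tested. Filled circles passed both thresholds, open circles did not, grey squares are differences with DEF or FORM that were not tested, and dashed lines mark an FC of 1.5. tetur28g01950 lies to the left of 0 in CsA vs CON (−0.997) and to the right in PBO vs CsA (1.04).

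The synergists were then compared directly. In PBO against CsA 1 of 3 genes was called, where 9.67% of all genes were. tetur28g01950 was 2.05-fold higher in PBO (log2 FC 1.04, SE 0.147, interval 0.73 to 1.34, adjusted p = 1.94e-05, edgeR), with no overlap, and it was called in all 8 fits without a PBO or CsA library. In PBO against DEM 1 of 3 was called, where 11.5% of all genes were, again tetur28g01950, which was 1.54-fold higher in PBO (log2 FC 0.62, SE 0.142, adjusted p = 0.00167, edgeR) without overlap. Lying so near the FC threshold, it fell below it without PBO 1, PBO 2, DEM 2 or DEM 4 (log2 FC from 0.55 to 0.58), with an adjusted p of at most 0.00835 in any fit that left out a library. tetur14g02320 was lower in PBO than in DEM by a log2 FC of −0.34, with an adjusted p of 0.0447 by edgeR and an FC under 1.5. By the adjusted p alone, 36.4% of all genes passed here.

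In DEM against CsA 0 of 3 genes were called, where 0.589% of all genes were. By edgeR's unadjusted p 1 of the 3, tetur28g01950, was under 0.05, where 728 of all 12736 genes were. The log2 FC of tetur28g01950 was 0.42 (interval 0.11 to 0.73), with an adjusted p of 0.477 by edgeR. Its DEM and CsA libraries did not overlap, and how many other genes did not overlap either was not counted. The intervals were −0.49 to 0.21 for tetur14g02300 and −0.20 to 0.34 for tetur14g02320.

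The comparisons with FORM are values without a test, since its libraries had themselves taken part in the choice of the genes and a low FORM level is part of that choice. PBO differed from FORM by a log2 FC of 0.57 for tetur14g02300, 0.26 for tetur14g02320 and 0.47 for tetur28g01950, and the PBO libraries of tetur14g02300 lay above all FORM libraries. DEM differed from FORM by 0.28, 0.60 and −0.15 in the same order, and the DEM libraries of tetur14g02320 lay above all FORM libraries. CsA differed from FORM by 0.42, 0.53 and −0.57, and the CsA libraries lay above all FORM libraries for tetur14g02320 and below them for tetur28g01950. Without CsA 4 the values for the scaffold 14 genes were 0.60 and 0.62. FORM differed from CON by 0.30, −0.15 and −0.43.

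Of all genes, 2.61% passed both thresholds between PBO and FORM, 2.17% between DEM and FORM, 1.04% between CsA and FORM and 0.0236% between FORM and CON. Of the 3 transporters 0, 1, 0 and 0 did, the 1 being tetur14g02320 with DEM, and nothing is read from these counts. By the adjusted p alone 2 of the 3 passed with PBO, where 8.79% of all genes did, and 2 with CsA, where 3.62% did. Nothing is read from these counts either. The FORM libraries took part in choosing the 3 genes, so their counts cannot be compared with the shares of all genes.

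DEF stood at the top of all 3 orders, a rank that depends in part on choosing the genes by DEF against FORM. Its log2 FC over FORM, the values of the contrast that chose the genes, was 0.83, 0.76 and 0.86 for tetur14g02300, tetur14g02320 and tetur28g01950, and 2.63% of all genes were called in that comparison. Nearest to the FC threshold of 1.5 was tetur14g02320, at 1.70. No gene of the class outside the threshold can be given, since gene IDs and class were paired here for these 3 genes only. Against CON the log2 FC of DEF was 1.14, 0.61 and 0.43. Against CsA it was 0.42 and 0.23 for the scaffold 14 genes and 1.43 for tetur28g01950, the highest value of any pair of groups for any of the 3.

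The level of tetur14g02300 varied over libraries with that of tetur14g02320, with a Pearson r of 0.68 of log2 CPM over 24 libraries. After the group means were subtracted r was 0.53, and 0.41 without CsA 4, the library low for both. Each was less alike with tetur28g01950 over all libraries, with r of 0.26 and 0.14. After the group means were subtracted, r with tetur28g01950 was 0.14 for tetur14g02300 and 0.40 for tetur14g02320. Without CsA 4 the value for tetur14g02320 was 0.41, as for the scaffold 14 pair. These r are descriptions, since the libraries share treatments.

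Genes close to a transporter in ID number were looked at next, within 50 of its number on the same scaffold, which took in 20 other genes of which 15 passed the filter. Numbers were taken as order along the scaffold, and distances were not used here. Against CON, 0 of these 15 were called with PBO, DEM or CsA, where 6.05%, 2.53% and 2.47% of all genes were. Their median log2 FC was 0.000522 with PBO, 0.24 with DEM and 0.14 with CsA. In PBO vs DEM 2 of the 15 were called, both lower, where 11.5% of all genes were called, and in PBO vs CsA 1 was, where 9.67% were. tetur14g02310 lies between the scaffold 14 transporters. Its mean level was 2.71 ± 0.397 CPM in CON, 2.28 ± 0.782 in PBO and 4.26 ± 1.38 in CsA (SD, n = 4). It was lower in PBO than in CsA (log2 FC −0.90, adjusted p = 0.00736, edgeR) and than in DEM (−0.76, adjusted p = 0.0179). tetur14g02290, before tetur14g02300, was at 21.4 ± 2.25 CPM in CON, 26.7 ± 1.36 in PBO, 30.6 ± 2.44 in DEM and 29.3 ± 3.32 in CsA. Its log2 FCs were 0.32, 0.51 and 0.45 (adjusted p = 0.0183, 0.00176 and 0.00535, edgeR), each under an FC of 1.5.

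On scaffold 28, tetur28g01960 was not low in CsA, where tetur28g01950 had its lowest level. It was at 2.998 ± 1.43 CPM in CON and 7.34 ± 3.08 in CsA (SD, n = 4). The log2 FC was 1.27 (SE 0.451), with an adjusted p of 0.0730 by edgeR, and the gene was not called. By default HTSeq drops any read that fits more than 1 gene or place, so overlapping genes and near-identical copies of the transporters, if there are any, would be undercounted.

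**Figure D3:**
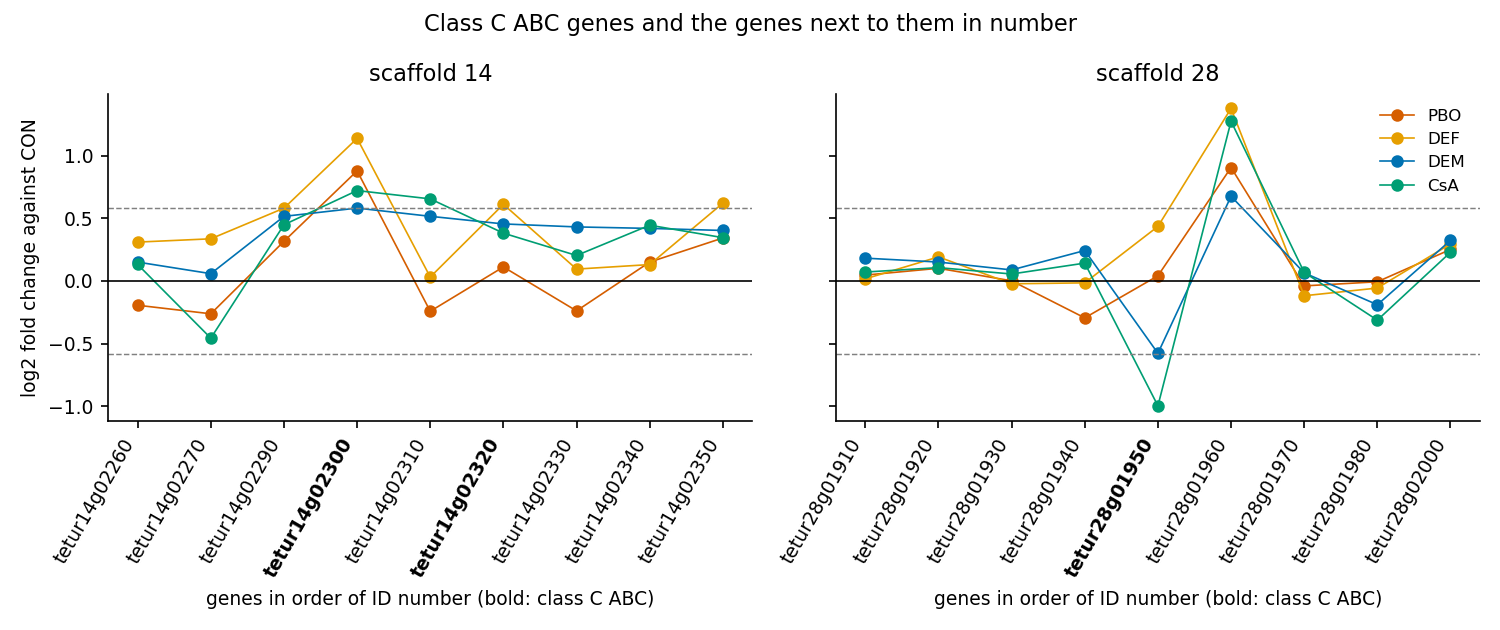
Log2 FC against CON of the transporters (bold names) and the genes next to them in ID number that passed the filter, for PBO, DEF, DEM and CsA. Genes stand at equal steps in order of number, lines only join the genes of a treatment, and dashed lines mark an FC of 1.5; DEF values were not tested. tetur28g01950 is at −0.997 in CsA between neighbours above 0, and tetur14g02310 is below 0 in PBO between transporters above 0.

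For each transporter the genes with the most similar log2 CPM over the 24 libraries were listed. The r values include the DEF and FORM libraries, which took part in choosing the transporters. For tetur28g01950 these were tetur05g04460, annotated as a vesicular glutamate transporter 1 (Pearson r 0.93), and the UDP-glycosyltransferases UGT65 (tetur22g00420, r 0.91) and UGT63 (tetur22g00360, r 0.90), followed by tetur01g07860 (r 0.898) and tetur17g01130 (r 0.890), which were not annotated here. With the group means subtracted, the 5 most similar genes were others, none of them annotated here, led by tetur17g00910 (r 0.87). UDP-glycosyltransferases attach sugars to small lipophilic molecules, a conjugation step of detoxification. UGT65 had a mean of 7.72 ± 1.89 CPM in CON, 10.01 ± 2.30 in PBO, 2.87 ± 0.673 in DEM and 2.12 ± 0.443 in CsA (SD, n = 4). UGT63 had 4.97 ± 1.09 CPM in CON, 10.3 ± 1.27 in PBO, 2.29 ± 0.503 in DEM and 1.43 ± 0.0924 in CsA. These genes were picked for following tetur28g01950 over these same libraries, so their differences between groups are given without a test. Both UDP-glycosyltransferases were lower in CsA than in CON, with log2 FCs of −1.86 and −1.79, and lower in DEM, with −1.42 and −1.12. UGT63 was also higher in PBO than in CON (log2 FC 1.04), where tetur28g01950 was at 0.04. tetur05g04460 was lower in CsA than in CON, with a log2 FC of −1.49.

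**Figure D4:**
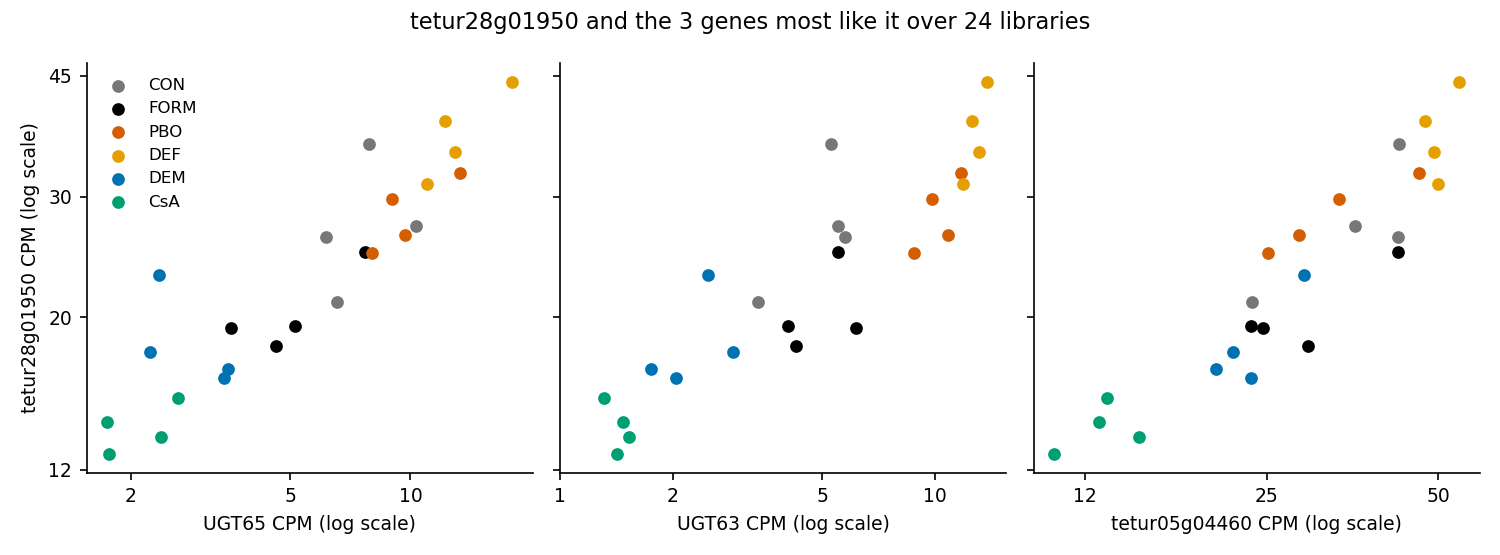
Level of tetur28g01950 against that of UGT65, UGT63 and tetur05g04460 in each of the 24 libraries, in CPM, both axes logarithmic, coloured by group. The CsA libraries lie at the lower left, with tetur28g01950 at 12.6 to 15.3 CPM, and the DEF libraries at the upper right.

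Over the 14 UDP-glycosyltransferases in the study's tables, r with tetur28g01950 had a median of 0.63 and exceeded 0.5 for 10. For 6 glutathione S-transferases, which conjugate glutathione, the median was 0.65 and 5 exceeded 0.5, while 9.05% of all genes did. With group means removed the medians were 0.40 and −0.06. These lists were drawn from the study's tables, so their members were chosen for differing between these same groups. With tetur14g02300 the medians were 0.43 and 0.12, and with tetur14g02320 0.15 and −0.20. The UDP-glycosyltransferases called against CON were 7 higher and 0 lower with PBO, 1 higher and 6 lower with DEM, and 0 higher and 2 lower with CsA. Their median log2 FC was 0.54, −0.48 and 0.10. The glutathione S-transferases called were 4 higher with PBO, 0 with DEM and 3 lower with CsA, with medians of 0.65, −0.24 and −0.57. Of all genes, 6.05%, 2.53% and 2.47% were called against CON with PBO, DEM and CsA. The choice of both lists from genes differing between these groups favours high counts.

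The genes most like the scaffold 14 transporters were not annotated here. For tetur14g02300 they were tetur28g01200, tetur02g12650, tetur12g91753, tetur08g00200 and tetur05g06370, with r from 0.80 to 0.82. For tetur14g02320 they were tetur27g01550, tetur01g07690, tetur09g02340, tetur30g00470 and tetur05g04670, with r from 0.86 to 0.90. The first of each covered a narrow range of group means, from 86.2 CPM in CON to 98.9 in DEF for tetur28g01200 and from 43.8 CPM in FORM to 53.9 in DEF for tetur27g01550. With the group means subtracted the 5 most similar genes were again others, led by tetur04g05260 for tetur14g02300 (r 0.89) and tetur15g00080 for tetur14g02320 (r 0.86). The 2 orthologs of CncC, a transcription factor that in Drosophila induces detoxification genes, and the 2 of 3 calcineurin subunits that passed the filter were not called in any comparison tested. Each of them did reach an adjusted p under 0.05 by edgeR in some comparison, with an FC under 1.5. For tetur07g04600 the log2 FC of DEM over CON was 0.34 (adjusted p = 0.0222, edgeR). For calcineurin subunit tetur03g06410 that of PBO over CON was −0.33 (adjusted p = 0.0183, edgeR). CncC ortholog tetur07g04600 was at 9.50 ± 0.675 CPM in CON and 12.1 ± 0.817 in DEM, and tetur07g06850 at 73.4 ± 3.77 and 78.9 ± 6.58 (SD, n = 4). The calcineurin subunits were at 73.6 CPM in CON and 67.1 in CsA for tetur03g06410 and at 69.03 and 71.6 CPM for tetur04g07540.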

How the data were processed

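RNA of whole females was polyA-selected and sequenced strand-specifically in 24 libraries. By the submitters' processing notes and the paper's methods, the authors used FastQC 0.11.4, STAR 2.5.0a, SAMtools 0.1.19 and HTSeq 0.6.0 to make the deposited raw counts for 19087 genes. edgeR 4.0.16 under R 4.3.3 gave the tests, and DESeq2 1.42.0 and limma 3.58.1 served for alternatives. filterByExpr kept 12736 genes, libraries were scaled by TMM, and a model with a mean for each group was fitted to the 24 libraries with robust quasi-likelihood dispersions (biological coefficient of variation 9.80%). Differences were called at a Benjamini-Hochberg adjusted p under 0.05 and an FC of at least 1.5. log2 CPM used a prior count of 2. The procedure was tested on simulated data. Comparisons with FORM were fitted as planned but are given as description, because FORM took part in choosing the genes.

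Genes named are the 3 transporters, the 5 genes most like each by Pearson r over all libraries (after subtracting group means, only the first of 5), those genes within 50 ID numbers that the text describes, the CncC orthologs and the calcineurin subunits. Members and lists were chosen with earlier results of these data known. Alternatives were other tools, scalings, filters, thresholds, a 2-group fit, the replicate number as a block and each library left out. The fit without the robust option and the correlations without CsA 4 were added after seeing the data. The sources used here give no gene lengths, coordinates or sequences matching these IDs, so none were used.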

Additional observations from a re-analysis of the deposited data

Results flagged for a closer look

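In 2 of 18 sets of 4 libraries, all for the 3 genes in the 6 groups, a library lay far from the other 3 of its group, where chance alone gives about 1 in 20. tetur14g02300 was at 3.37 CPM in CON 1, with a gap to the nearest CON library of 0.860 of the range of the group. The same gene was at 2.78 CPM in CsA 4, with a gap of 0.848 of the range. The log2 FC of this gene between CsA and CON was 0.72 with all libraries and 0.90 without CsA 4.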

How the results depend on the processing

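The counts of class C ABC genes called did not change under DESeq2, limma-voom, DESeq2 size factors or a fit without the robust option. In PBO vs CON the count was 1, and 0 when tested against an FC of 1.5. In CsA vs CON it was 2, with 1 in a fit of the 2 groups only (tetur14g02300, adjusted p = 0.0738) and 0 against an FC of 1.5. In DEM vs CON it was 0, with 1 without the filter, 1 with the replicate block (tetur14g02300, log2 FC 0.59) and 3 by the adjusted p alone. In PBO vs DEM it was 1, with 0 at 10 or more counts in every library, 0 against an FC of 1.5 and 2 by the adjusted p alone. Counts with FORM are left out, since FORM took part in choosing the genes. With 1 library left out, the counts ran from 0 to 1 in DEM vs CON and PBO vs DEM, and from 1 to 2 in CsA vs CON. 5 log2 FCs, none called, changed sign with 1 library left out. tetur28g01950 in PBO vs CON ran from −0.084 (without CON 3) to 0.17 (without CON 1), and was at −0.00408 without PBO 1 and −0.028 without PBO 2. tetur14g02300 in PBO vs CsA ran from −0.030 (without CsA 4) to 0.25, and tetur14g02320 in DEM vs CsA from −0.017 (without CsA 4) to 0.15. The causes were not tested.

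Same-numbered libraries did not deviate together in every pair of any comparison (r from −0.169 to 0.462), so the replicate numbers were not taken as pairs, and the replicate block changed no other count of calls. With 40 to 106 reads per library, tetur14g02300 had the highest counting error of the 3 genes, 10.4 to 14.4%.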
